A study of Homo sapiens with 38 samples.

Results

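The p53 target genes described here were a named list of 39 genes that the transcription factor p53 is known to activate or that act on p53 itself, out of 58425 genes with a transcript in the deposited quantifications. Its rule is by gene symbol and uses no measured value, but the list was proposed with earlier results of these data known. It was divided by role into 6 feedback regulators, 5 cell cycle arrest genes, 14 genes of mitochondrial and death receptor apoptosis, 4 genes of DNA repair and nucleotide supply, 5 genes of metabolism, redox and stress signalling, and 5 others. Of the 39 genes, 37 had enough reads to be tested in both RNA fractions. EDA2R, a receptor of the tumour necrosis factor family, had at most 4 reads in a library, and TP53TG1, a noncoding RNA, was listed at 0 in all 30 libraries.

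p53 is a tetrameric transcription factor that is kept low by the ubiquitin ligase MDM2 and its relative MDM4. DNA damage and other stresses release p53, which then binds its response elements and raises genes that stop the cell cycle, repair DNA or start apoptosis. MDM2, PPM1D and CCNG1 are themselves targets and close negative feedback loops. HCT116, a human colon cancer cell line, is a common model of this response.

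The study asked how loss of Argonaute (AGO) proteins, the effectors of microRNA silencing, changes RNA in the nucleus and in the cytoplasm. Total RNA was sequenced from wild-type (WT) HCT116 cells and from CRISPR-edited lines with knockout (KO) of AGO1 (AGO1-/-), of AGO2 (AGO2-/-), of AGO1 and AGO2 together (AGO1/2) or of these with AGO3 added (AGO1/2/3; every edited gene is labelled -/-), with 3 libraries per genotype and fraction. No agent was given, so the levels are those of untreated cells in growth medium. The 3 libraries of a group were passages of 1 line, 27 to 29 for WT and between 6 and 14 for the KO lines, so genotype, clone and passage cannot be told apart, and p-values measure the spread between passages, which may be technical.

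Read totals ran from 20431557 to 54097984 in the nucleus and from 39476205 to 79731793 in the cytoplasm, with WT the shallowest in both. AGO1 mRNA was lower than WT in the lines edited for it, by 3.49 on the log2 scale in the cytoplasm of the AGO1 KO line. AGO2 mRNA fell by 0.67 in the cytoplasm of the AGO2 KO line but was 0.31 higher in that of the AGO1/2 KO line, and AGO3 mRNA was 0.34 higher in that of the AGO1/2/3 KO line, while in the AGO1/2/3 KO nuclei AGO2 and AGO3 mRNA were lower by 0.44 and 0.30. The mRNA levels thus gave no uniform check of the AGO2 and AGO3 edits. The study itself examined AGO proteins in these lines by western blot, which is not part of these data. Of 7 colon epithelial markers, EPCAM and the keratins were abundant, CDH1 was low in several KO lines and VIL1 was near 0, while the summed TPM (a transcript level scaled for length and library size) of 8 markers of other cell types was between 0.685 and 6.61 in every library. Fraction markers also moved. In nuclear RNA the nuclear transcript MALAT1 was lower than in WT by 0.53, 0.49, 1.18 and 0.95 on the log2 scale, and GAPDH was higher by 0.60, 0.60, 1.11 and 0.91. These and later sets of 4 values follow the KO lines in the order AGO1, AGO2, AGO1/2, AGO1/2/3. The part of these shifts in the nuclear results was not tested. The WT library of passage 29 was 1.74 to 5.14 times the other WT libraries for GDF15, CDKN1A and 3 other target genes, and values that it moves by over 1.5 times or across the threshold are also given without it. Of 144 calls of target genes in the 8 comparisons of a KO line with WT, 38 were lost when some 1 library was left out, 15 of them without this one. In such bulk RNA, fewer cells with an mRNA and less of it per cell cannot be told apart.

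The promoters of 4 target genes held a match to the p53 response element in the window from 250 bases before to 50 bases after a RefSeq transcription start (build GRCh38.p14). The element is a run of 20 bases made of 2 decamers with no spacer. A match had to keep the C at base 4 and the G at base 7 of each decamer (CNNG) and could have at most 2 other departures from the p53 consensus, on either strand. The matches are shown because MDM2, DDB2 and AEN were among the genes with the highest AGO1 KO values below. No match was found for FDXR and PLK2, whose nuclear AGO1 KO values were higher still, and FAS, with a match, rose less. The 4 conserved core letters are in capitals.
MDM2 (chr12:68808923-68808942, + strand): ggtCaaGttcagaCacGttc
DDB2 (chr11:47214969-47214988, + strand): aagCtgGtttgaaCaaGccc
AEN (chr15:88621306-88621325, + strand): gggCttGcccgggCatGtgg
FAS (chr10:88991309-88991328, + strand): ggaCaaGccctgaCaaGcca
Windows were found for 33 of the 39 genes. A match stood in 9.62% of their 52 windows, with the MDM2 site counted in overlapping windows, and in 0.285% of all 35116 windows. The matches are a description of these letters only.

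Each KO line was compared with WT within a fraction by edgeR's quasi-likelihood test on gene read numbers scaled by TMM, which sets the bulk of genes to no change. A gene is said to have risen or fallen where its Benjamini-Hochberg adjusted p was 0.05 or less over all genes tested. The 4 comparisons of a fraction share their WT libraries. In the nucleus of the AGO1 KO line 19 target genes rose and 1 fell, beside 14.3% of all tested genes that rose and 29.9% that were called in either direction. The median log2 fold change of the 37 genes was 0.46, against -0.03 over all genes. In the cytoplasm of this line 19 rose and 1 fell, beside 4.28% of all genes higher and 12.4% called, with a median of 0.45 against -0.01. Without the cytoplasmic AGO1 KO library of passage 7, 13 genes rose and none fell in the cytoplasm. In that fit 6.78% of all genes were called, of which 29.7% were higher.

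Counts in the other lines were more even. In the nucleus 11 target genes rose and 6 fell in the AGO2 KO line (20.2% of all genes higher, 40.2% called), 18 rose and 7 fell in the AGO1/2 KO line (32.9% higher, 67.6% called) and 13 rose and 7 fell in the AGO1/2/3 KO line (29.1% higher, 58.6% called). In the cytoplasm the counts were 5 higher and 4 lower in the AGO2 KO line (7.07% of all genes higher, 16.1% called), 12 and 9 in the AGO1/2 KO line (23.9% higher, 49.3% called) and 6 and 6 in the AGO1/2/3 KO line (18.6% higher, 38.7% called). The medians of the target genes were 0.08, 0.23 and 0.00 in the nucleus and 0.00, 0.06 and -0.01 in the cytoplasm, and with SPATA18 set at its bound, given below, they were the same in the groups where it had no reads.

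These splits depended on the scale outside the AGO1 KO line. Tested by limma on log2(TPM + 1), without TMM, the target genes that were higher and lower numbered 14 and 3 in the nucleus and 12 and 4 in the cytoplasm of the AGO1 KO line. For the AGO2, AGO1/2 and AGO1/2/3 KO lines they numbered 2 and 10, 13 and 8, and 7 and 16 in the nucleus, and 0 and 8, 2 and 18, and 2 and 16 in the cytoplasm. Over all genes limma called 32.4%, 36.9%, 61.3% and 53.8% in the nuclei of the 4 KO lines, of which 5.9%, 9.71%, 42.7% and 26.5% were higher, and 18.4%, 28.9%, 57.6% and 45.9% in the cytoplasm, of which 7.34%, 5.99%, 13.4% and 17.7% were higher. On that scale the median over all genes lay between 0.07 and 0.20 below 0 in the 8 comparisons. Among the 20 target genes called in each fraction of the AGO1 KO line none changed direction under any scaling tried.

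**Figure D1:**
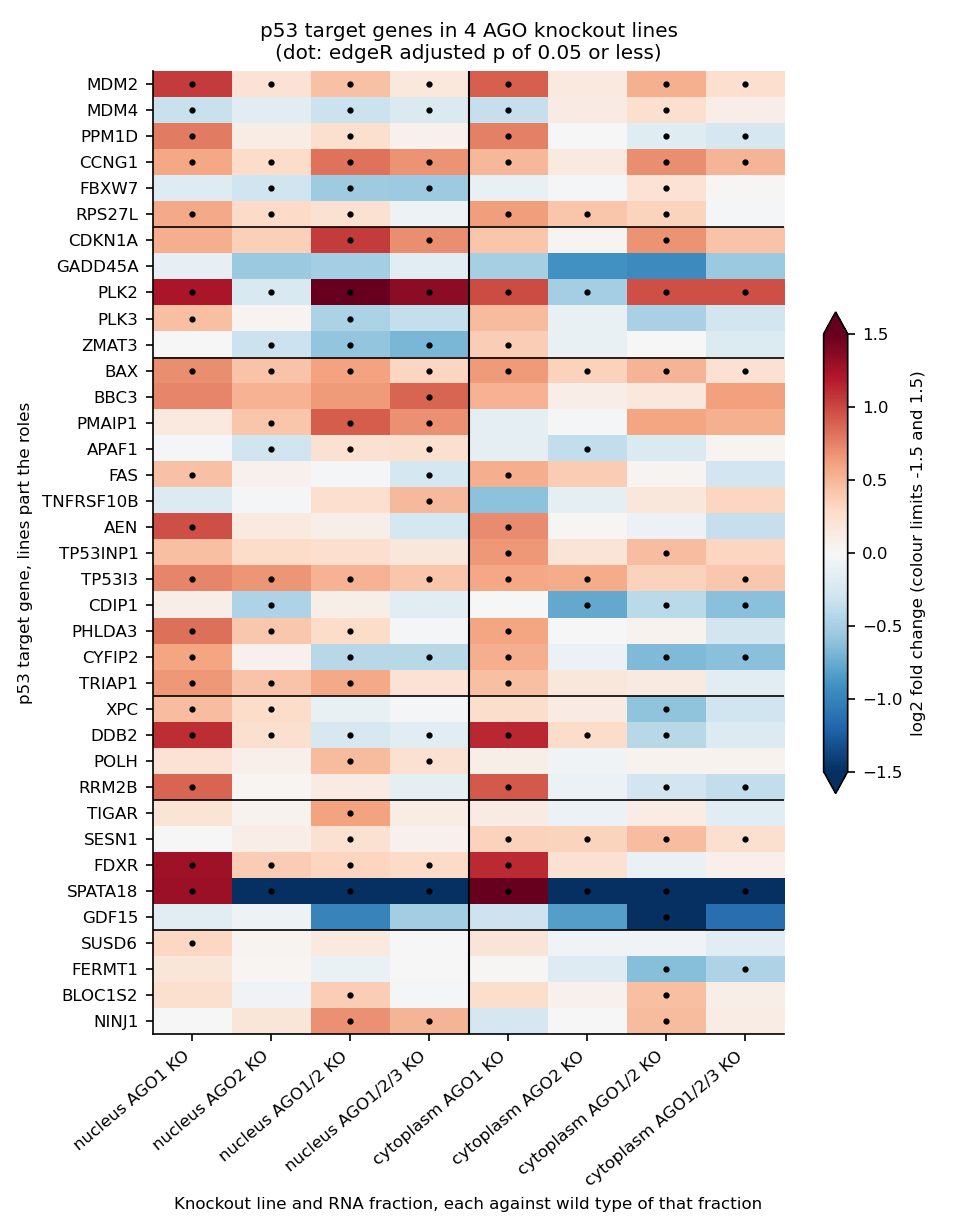
Log2 fold changes of the 37 tested p53 target genes (rows, parted by role) in 4 AGO knockout lines against WT, in nuclear (left) and cytoplasmic (right) RNA, with red for higher, blue for lower and a dot for an edgeR adjusted p of 0.05 or less. The AGO1 KO columns hold 19 higher and 1 lower gene in each fraction, and SPATA18 and some other values lie beyond the colour limits.

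Among the feedback regulators, MDM2, PPM1D, CCNG1 and RPS27L rose in both fractions of the AGO1 KO line, and MDM4 fell in both. MDM2, the ubiquitin ligase that marks p53 for destruction, had nuclear levels of 79.8, 83.5 and 64.9 TPM in WT and 143, 133 and 135 TPM in the AGO1 KO line. In the cytoplasm it had 64.8, 67.2 and 55.5 TPM in WT and 106, 114 and 114 TPM in the AGO1 KO line. All AGO1 KO libraries lay above all WT libraries in both fractions. The log2 fold change was 1.04 ± 0.07 (SE) in the nucleus (edgeR, adjusted p = 1.87e-07) and 0.89 ± 0.07 in the cytoplasm (edgeR, adjusted p = 2.48e-06).

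In the other lines MDM2 stood much closer to WT. Its nuclear levels were 78.3, 71.3 and 72.8 TPM in the AGO2 KO line, 100, 103 and 86.1 TPM in the AGO1/2 KO line and 74.4, 73.8 and 69.5 TPM in the AGO1/2/3 KO line. Only the AGO1/2 KO libraries lay above every WT library in nuclear TPM. The TMM-scaled log2 fold changes were 0.22, 0.44 and 0.16 in the nucleus and 0.15, 0.53 and 0.25 in the cytoplasm, of which the cytoplasmic AGO2 KO value did not pass the test, and on the log2(TPM + 1) scale those of the AGO2 and AGO1/2/3 KO lines turned to -0.03 and -0.06 in the nucleus and -0.17 and -0.04 in the cytoplasm. The nuclear calls were lost without AGO2 KO passage 10 (adjusted p = 0.0698 with edgeR) and without any 1 of the AGO1/2/3 KO libraries or WT passage 27 (edgeR adjusted p between 0.0552 and 0.0862).

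PPM1D encodes WIP1, the phosphatase that switches off p53 and its upstream kinases. It rose by 0.78 and 0.76 on the log2 scale in the nucleus and cytoplasm of the AGO1 KO line, and in the AGO1/2 KO line it rose by 0.24 in the nucleus and fell by 0.19 in the cytoplasm, and the latter value was -0.14 and -0.15 and not past the test without AGO1/2 KO passage 11 or WT passage 28 (edgeR, adjusted p = 0.0715 and 0.0821). CCNG1, cyclin G1, was higher by 0.59, 0.27, 0.81 and 0.68 in the nuclei of the 4 KO lines, and the AGO2 KO value turned to -0.01 on the log2(TPM + 1) scale. RPS27L, a ribosomal protein paralog, rose by 0.57 and 0.62 in the AGO1 KO line, with the limit that reads may be split with its near copy RPS27.

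MDM4, which blocks the activation domain of p53, and FBXW7, the substrate receptor of a ubiquitin ligase for cyclin E and MYC, went the other way in nuclei. MDM4 fell by 0.34 on the log2 scale in the AGO1 KO nucleus and fell by 0.34 in its cytoplasm, the latter call being lost without AGO1 KO passage 7 (-0.30, edgeR adjusted p = 0.0584). FBXW7 fell by 0.29, 0.54 and 0.54 in the nuclei of the AGO2, AGO1/2 and AGO1/2/3 KO lines, while its cytoplasmic log2 fold changes in these lines were -0.02, 0.21 and 0.02. The AGO1/2 KO cytoplasm was the only one of them to pass the test, at 0.21 for FBXW7 and 0.25 for MDM4, and both turned to below 0 (-0.03 and -0.20) on the log2(TPM + 1) scale. The FBXW7 call there was lost without WT passage 29 (0.12) or any 1 AGO1/2 KO library (0.18 to 0.23) and the MDM4 call without AGO1/2 KO passage 10 or WT passage 28 (0.20 and 0.21), and the AGO2 KO nuclear call of FBXW7 was lost without AGO2 KO passage 10 or WT passage 27 or 28 (-0.25 to -0.19).

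Of the cell cycle arrest genes, PLK2 moved most. PLK2, a polo-like kinase that checks centriole duplication and is induced by p53, had nuclear levels of 45.3, 47.6 and 36.5 TPM in WT and 102, 83.4 and 82.0 TPM in the AGO1 KO line. The AGO1/2 KO nuclei held 109, 120 and 118 TPM and the AGO1/2/3 KO nuclei 83.9, 86.0 and 89.9 TPM, whereas the AGO2 KO nuclei held 31.6, 29.6 and 35 TPM. Every library of the 3 lines without AGO1 lay above every WT library, and every AGO2 KO library lay below.

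The nuclear log2 fold changes of PLK2 were 1.22 ± 0.09, 1.61 ± 0.09 and 1.34 ± 0.09 (SE) in the AGO1, AGO1/2 and AGO1/2/3 KO lines, with edgeR adjusted p of 3.57e-07, 7.01e-10 and 6.39e-09. In the cytoplasm they were 0.98, 0.97 and 0.97, with levels of 17.8 to 21.4 TPM in WT and 26.0 to 37.6 TPM over the 3 lines. In the AGO2 KO line PLK2 fell by 0.51 in the cytoplasm (edgeR, adjusted p = 0.000375), where it had 11.8, 10.6 and 12.1 TPM. Its nuclear fall of 0.23 in that line lost the call without AGO2 KO passage 8 or 9 or WT passage 27 or 28 (edgeR adjusted p between 0.147 and 0.258).

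CDKN1A encodes p21, the inhibitor of cyclin-dependent kinases that carries out the G1 arrest by p53. Its nuclear levels were 26.9, 28.4 and 48.0 TPM in WT, 42.0, 45.5 and 44.9 TPM in the AGO1 KO line and 75.8, 69.7 and 63.6 TPM in the AGO1/2 KO line. The WT library of passage 29, at 48.0 TPM, was above all 3 AGO1 KO libraries, while the other WT libraries were below them. With all libraries CDKN1A rose in the nuclei of the AGO1/2 and AGO1/2/3 KO lines, by 1.05 ± 0.21 and 0.69 ± 0.20 (edgeR, adjusted p = 0.000333 and 0.00871), and its AGO1 KO value was 0.55 ± 0.20 (adjusted p = 0.0568).

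In the cytoplasm CDKN1A stood at 37.7, 38.8 and 76.3 TPM in WT, and the 12 KO libraries, between 43.1 and 69.4 TPM, all lay inside that range. It rose by 0.67 in the AGO1/2 KO line (edgeR, adjusted p = 0.0246), a call lost without AGO1/2 KO passage 9 or WT passage 27 or 28 (edgeR adjusted p between 0.0748 and 0.108). Without WT passage 29 its log2 fold changes were 0.96, 0.78, 1.48 and 1.12 in the nuclei and 0.90, 0.53, 1.16 and 0.92 in the cytoplasm of the 4 KO lines, and all 8 passed the test.

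CDKN1A mRNA also carries matches to the shared seed (bases 2 to 8, in capitals) of the miR-17 group, shown because AGO proteins act through such sites.
hsa-miR-17-5p: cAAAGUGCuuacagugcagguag
hsa-miR-20a-5p: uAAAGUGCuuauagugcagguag
hsa-miR-93-5p: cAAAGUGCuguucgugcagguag
hsa-miR-106b-5p: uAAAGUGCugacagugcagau
CDKN1A 3′ UTR (chr6:36686262-36686280, + strand): cagatgGCACTTTgaaggg
CDKN1A 3′ UTR (chr6:36686942-36686960, + strand): ttcattGCACTTTgattag
The capitals in the CDKN1A stretches are the letters GCACTTT, read in the 3′ UTR of its GENCODE canonical transcript (GRCh38). These letters stood in the 3′ UTR of 13 of the 38 target genes that have one, or 34.2%, and of 21.3% of all 19217 genes. In the cytoplasm of the AGO1/2 KO line the 12 tested target genes with the letters had a median log2 fold change of 0.14 with 5 higher and none lower, and the 25 without them -0.10 with 7 higher and 9 lower. Over all tested genes there, 1023 of 3274 with the letters rose and 945 fell (median 0.02), and 2620 of 10156 without them rose and 3029 fell (median -0.03). In the cytoplasm of the AGO1/2/3 KO line the 12 target genes with the letters had a median log2 fold change of 0.02 with 1 higher and none lower, and the 25 without them -0.16 with 5 higher and 6 lower. Over all tested genes there, 834 rose and 781 fell with the letters (median 0.00), and 2079 rose and 2380 fell without them (median -0.03). A match is no evidence of silencing.

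The 3 other arrest genes differed among themselves. ZMAT3, an RNA-binding zinc finger protein and p53-induced growth suppressor, fell in nuclei by 0.32, 0.59 and 0.68 on the log2 scale in the AGO2, AGO1/2 and AGO1/2/3 KO lines, and rose by 0.37 in the cytoplasm of the AGO1 KO line, a call lost without AGO1 KO passage 7 (0.35, edgeR adjusted p = 0.0523). PLK3, a stress-responsive polo-like kinase, rose by 0.45 in the AGO1 KO nucleus and fell by 0.47 in the AGO1/2 KO nucleus. Without WT passage 29 these values were 0.76 and -0.15, the second past the test no longer (edgeR, adjusted p = 0.123), and the first lost its call without any other WT library or any 1 AGO1 KO library (0.33 to 0.48). GADD45A, a DNA damage-inducible regulator of arrest and repair, passed the test in none of the 8 comparisons, with log2 fold changes from -0.95 to -0.12, and the WT library of passage 29 had 2.22 times the mean of the other WT libraries in the nucleus and 3.33 times in the cytoplasm. Without that library GADD45A was at 0.51, 0.08, 0.14 and 0.47 in the nuclei of the 4 KO lines, and the AGO1 and AGO1/2/3 KO values passed the test (edgeR, adjusted p = 0.0262 and 0.0168).

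In the apoptosis group 7 of the 13 tested genes rose and none fell in the AGO1 KO nucleus, beside 14.3% of all genes higher. In its cytoplasm 8 rose and none fell, beside 4.28% of all genes higher. TP53I3 rose by 0.57 and TP53INP1 by 0.65 in that cytoplasm. Both calls were lost without AGO1 KO passage 7 or 8 (0.45 to 0.59), and that of TP53INP1 also without WT passage 27 or 28 (0.53 and 0.63). BAX, the pore-forming effector of the mitochondrial outer membrane, had 21.5, 24.2 and 18.4 TPM in WT nuclei and 27.1, 28.8 and 28.0 TPM in AGO1 KO nuclei. In the cytoplasm it had 35.1, 38.0 and 34.2 TPM in WT and 43.5, 44.9 and 48.1 TPM in the AGO1 KO line. The groups did not overlap in either fraction, and the log2 fold change was 0.69 ± 0.09 (SE) in the nucleus and 0.64 ± 0.08 in the cytoplasm (edgeR, adjusted p = 0.000115 and 7.62e-05).

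BAX levels in the other nuclei were 23.4, 24.9 and 28.0 TPM in the AGO2 KO line, 35.9, 38.6 and 31.2 TPM in the AGO1/2 KO line and 23.6, 27.2 and 26.2 TPM in the AGO1/2/3 KO line. Its nuclear log2 fold changes there were 0.43, 0.60 and 0.32, all past the test. In the cytoplasm the TPM of these lines, from 32.6 to 38.0, lay almost wholly within the WT range, and the TMM-scaled values of 0.34, 0.51 and 0.23 passed the test but became 0.06, -0.03 and -0.02 on the log2(TPM + 1) scale. The AGO1/2/3 KO cytoplasmic call was also lost without AGO1/2/3 KO passage 14, WT passage 27 or WT passage 29 (edgeR adjusted p between 0.0512 and 0.0818).

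BBC3 encodes PUMA, a BH3-only activator of BAX. Its nuclear levels were 2.97, 3.55 and 6.25 TPM in WT, 5.20, 5.71 and 6.35 TPM in the AGO1 KO line, 4.38, 5.18 and 5.67 TPM in the AGO2 KO line and 5.99, 4.29 and 8.35 TPM in the AGO1/2 KO line. The AGO1/2/3 KO nuclei had 6.98, 5.19 and 7.70 TPM. Again WT passage 29 lay among the KO libraries and the other WT libraries below all of them. The nuclear log2 fold change in the AGO1/2/3 KO line was 0.87 ± 0.30 (edgeR, adjusted p = 0.0210), and it lost the call without WT passage 27 or 28 or without AGO1/2/3 KO passage 11 or 14 (adjusted p between 0.0533 and 0.0866).

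In the cytoplasm BBC3 had 3.31, 3.83 and 8.45 TPM in WT, and no comparison passed the test. The 4 KO lines had means of 6.84, 4.84, 4.54 and 6.91 TPM. Without WT passage 29 the nuclear log2 fold changes of BBC3 were 1.23, 1.04, 1.16 and 1.38 and all passed, and the cytoplasmic ones were 1.16, 0.74, 0.80 and 1.25, of which the AGO2 KO value did not.

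AEN, a p53-induced nuclease, rose by 0.97 in the AGO1 KO nucleus and by 0.71 in its cytoplasm on the log2 scale. PHLDA3, an inhibitor of AKT, rose by 0.83 and 0.59, TRIAP1, which protects mitochondria from apoptosis, by 0.65 and 0.45, and FAS, the death receptor, by 0.44 and 0.55. Of these cytoplasmic calls, that of PHLDA3 was lost without AGO1 KO passage 6 (0.43), that of FAS without passage 7 (0.47) and that of TRIAP1 without passage 6 or 7 or WT passage 29 (0.36, 0.43 and 0.33). TP53I3, an oxidoreductase also called PIG3, was higher in nuclei by 0.73, 0.66, 0.52 and 0.42 in the 4 KO lines, all past the test. CYFIP2, a subunit of an actin regulatory complex, rose by 0.59 and 0.54 in the AGO1 KO line but fell by 0.41 and 0.42 in the nuclei and by 0.66 and 0.62 in the cytoplasm of the AGO1/2 and AGO1/2/3 KO lines. CDIP1, a pro-apoptotic membrane protein, fell by 0.47 and 0.77 in the nucleus and cytoplasm of the AGO2 KO line, and the nuclear call was lost without WT passage 29 (-0.25, edgeR adjusted p = 0.223) or AGO2 KO passage 8 or 10 (-0.35 and -0.47).

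PMAIP1 encodes NOXA, another BH3-only protein, and APAF1 the scaffold of the apoptosome. PMAIP1 rose by 0.41, 0.91 and 0.68 in the nuclei of the AGO2, AGO1/2 and AGO1/2/3 KO lines, and no cytoplasmic value passed unless WT passage 29 was left out, when the AGO1/2 and AGO1/2/3 KO values were 1.06 and 1.01. TNFRSF10B, the TRAIL receptor DR5, rose by 0.48 in the AGO1/2/3 KO nucleus, with the limit that its paralogs can share reads. That call was lost without WT passage 27 or 28 or AGO1/2/3 KO passage 11 or 14 (0.33 to 0.48), and without WT passage 29 TNFRSF10B was at 0.24, 0.43, 0.71 and 0.93 in the nuclei of the 4 KO lines, all past the test. The PMAIP1 call in the AGO2 KO nucleus was likewise lost without WT passage 27 or 28 or any 1 AGO2 KO library (0.30 to 0.47), and was at 0.67 without WT passage 29. APAF1 fell by 0.30 and 0.37 in the nucleus and cytoplasm of the AGO2 KO line (the latter not past the test without AGO2 KO passage 8 or WT passage 28, at -0.33 and -0.29), and its nuclear rises of 0.23 and 0.24 in the AGO1/2 and AGO1/2/3 KO lines turned to -0.12 and -0.29 on the log2(TPM + 1) scale.

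Of the genes of DNA repair and nucleotide supply, DDB2 and RRM2B rose in both fractions of the AGO1 KO line and fell in the cytoplasm of the AGO1/2 KO line. DDB2, the damaged-DNA sensor that starts nucleotide excision repair with XPC, had 20.1, 20.1 and 22.5 TPM in WT nuclei and 43.7, 38.8 and 35.5 TPM in AGO1 KO nuclei. In the cytoplasm it had 14.2, 11.5 and 14.3 TPM in WT and 25.1, 26.2 and 28.7 TPM in the AGO1 KO line. All AGO1 KO libraries were higher, with log2 fold changes of 1.11 ± 0.06 (SE) in the nucleus and 1.13 ± 0.08 in the cytoplasm (edgeR, adjusted p = 3.98e-08 and 8.48e-07).

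In the AGO1/2 KO line DDB2 lay below WT. Its levels were 17.1, 20.02 and 19.6 TPM in the nucleus and 6.62, 6.89 and 7.38 TPM in the cytoplasm, all below the WT libraries of the same fraction. The cytoplasmic log2 fold change was -0.42 ± 0.08 (edgeR, adjusted p = 0.000736). The nuclear value was -0.23 (-0.15 without WT passage 29) but became 0.31 (adjusted p = 0.0137) when only protein-coding transcripts were summed, and that of the AGO1/2/3 KO nucleus changed from -0.16 to 0.38. The AGO1/2/3 KO nuclear call was lost without AGO1/2/3 KO passage 11 or 12 or any 1 WT library (edgeR adjusted p between 0.0580 and 0.284).

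The AGO2 KO line had 20.97, 22.5 and 20.9 TPM of DDB2 in the nucleus and 12.1, 13.9 and 11.8 TPM in the cytoplasm, both overlapping WT. Its TMM-scaled log2 fold changes of 0.24 and 0.28 passed the test, but the cytoplasmic one turned to -0.07 on the log2(TPM + 1) scale and lost the call without WT passage 27 or 28 or any 1 AGO2 KO library (edgeR adjusted p between 0.0719 and 0.122). RRM2B, the p53-inducible subunit of ribonucleotide reductase, rose by 0.87 and 0.93 in the AGO1 KO line and fell by 0.28 and 0.36 in the cytoplasm of the AGO1/2 and AGO1/2/3 KO lines, the first call being lost without AGO1/2 KO passage 9 (-0.27) or WT passage 29 (-0.21). XPC rose by 0.46 in the AGO1 KO nucleus and fell by 0.60 in the AGO1/2 KO cytoplasm. POLH, a translesion DNA polymerase, rose by 0.48 in the AGO1/2 KO nucleus.

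Among the metabolic genes FDXR, ferredoxin reductase of the mitochondria, also stood highest in the AGO1 KO line. Its nuclear levels were 15.4, 17.6 and 14.0 TPM in WT, 34.2, 33.0 and 32.4 TPM in the AGO1 KO line and 20.6, 20.1 and 19.7 TPM in the AGO1/2 KO line. In the cytoplasm they were 14.1, 15.0 and 15.2 TPM in WT, 28.2, 27.2 and 32.3 TPM in the AGO1 KO line and 10.9, 8.40 and 11.6 TPM in the AGO1/2 KO line. The AGO1 KO libraries were thus the highest in both fractions, and the AGO1/2 KO libraries were above WT in nuclear TPM and below it in cytoplasmic TPM.

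The log2 fold change of FDXR in the AGO1 KO line was 1.27 ± 0.06 (SE) in the nucleus and 1.12 ± 0.09 in the cytoplasm (edgeR, adjusted p = 2.06e-08 and 2.48e-06). In the nuclei of the AGO2, AGO1/2 and AGO1/2/3 KO lines it was 0.38, 0.32 and 0.28, all past the test. In their cytoplasm it was 0.23, -0.10 and 0.08, none past the test, and the last turned to -0.15 on the log2(TPM + 1) scale.

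SPATA18 encodes MIEAP, a p53-induced protein of mitochondrial quality control, and was barely expressed. WT nuclei had 0.239, 0.251 and 0.131 TPM and AGO1 KO nuclei 0.511, 0.714 and 0.481 TPM, and the cytoplasm had 0.103, 0.133 and 0.174 TPM in WT and 0.283, 0.293 and 0.304 TPM in the AGO1 KO line. All 12 AGO2 and AGO1/2/3 KO libraries and the 3 cytoplasmic AGO1/2 KO libraries held no read of it. AGO1/2 KO nuclei had 0.0419, 0 and 0.0116 TPM.

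Over a group, SPATA18 had 59 nuclear reads in WT and 180 in the AGO1 KO line, a depth-scaled ratio of 2.23 (exact 95% interval 1.66 to 3.05, counting error only). In the cytoplasm it had 63 and 314 reads, a ratio of 2.82 (2.15 to 3.76), and both changes passed the edgeR test. Against a floor of 3 reads over a group, SPATA18 was at least 30.7-fold lower in the AGO2 KO nuclei and at least 37.1-fold lower in the AGO1/2/3 KO nuclei. In the cytoplasm it was at least 36.1-fold, 39.5-fold and 38.7-fold lower in the AGO2, AGO1/2 and AGO1/2/3 KO lines. The 4 reads in AGO1/2 KO nuclei gave a ratio to WT of 0.0308 (0.00812 to 0.0831). The nearest named genes with at least 1 TPM on either side of SPATA18, SGCB and USP46, had nuclear means of 4.21 to 12.5 and 13.3 to 16.9 TPM over the 5 genotypes.

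GDF15, a secreted stress cytokine of the TGF-beta family, was the member on which a single library weighed most. WT nuclei had 27.8, 31.3 and 109 TPM and WT cytoplasm 27.2, 30.9 and 149 TPM, the last of each being passage 29. The AGO1 KO nuclei had 32.0, 38.3 and 60.5 TPM, the AGO2 KO nuclei 41.8, 41.0 and 55.6 TPM, the AGO1/2 KO nuclei 28.7, 26.1 and 31.0 TPM and the AGO1/2/3 KO nuclei 44.3, 23.6 and 36.8 TPM. No KO library reached the WT library of passage 29.

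In the cytoplasm GDF15 had 29.4, 41.6 and 86.4 TPM in the AGO1 KO line, 30.2, 29.1 and 44.1 TPM in the AGO2 KO line, 15.9, 13.7 and 20.9 TPM in the AGO1/2 KO line and 32.6, 17.2 and 32.5 TPM in the AGO1/2/3 KO line. The AGO1/2 KO line was below all WT libraries. Its log2 fold change was -1.69 ± 0.58 (SE; edgeR, adjusted p = 0.0258), the only one of the 8 to pass, and without WT passage 29 it was -0.33 (adjusted p = 0.492), while without AGO1/2 KO passage 9 or 10 the adjusted p was 0.0719 or 0.0802. Without WT passage 29 the nuclear AGO1 and AGO2 KO values turned from -0.16 and -0.08 to 0.87 and 0.96 (edgeR adjusted p = 0.0318 and 0.0131).

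SESN1, a sestrin that restrains mTORC1 signalling, rose by 0.35 in the AGO1 KO cytoplasm, and TIGAR, which lowers glycolytic flux, rose by 0.61 in the AGO1/2 KO nucleus. SESN1 was also called higher in the cytoplasm of the AGO2, AGO1/2 and AGO1/2/3 KO lines at 0.33, 0.47 and 0.24, and the last 2 turned to -0.04 and -0.10 on the log2(TPM + 1) scale. The AGO1 KO call was lost without WT passage 29 or AGO1 KO passage 6 or 7 (0.24 to 0.34), the AGO2 KO call without AGO2 KO passage 9 or 10 (0.32 and 0.30) and the AGO1/2/3 KO call without WT passage 29 or AGO1/2/3 KO passage 12 or 14 (0.14 to 0.23). Of the genes outside these roles, SUSD6 rose by 0.31 in the AGO1 KO nucleus. NINJ1, which ruptures the plasma membrane of dying cells, rose by 0.68 and 0.51 in the nuclei of the AGO1/2 and AGO1/2/3 KO lines, BLOC1S2 rose by 0.37 in the AGO1/2 KO nucleus, and FERMT1, an adaptor of integrins, fell by 0.64 and 0.46 in the cytoplasm of the AGO1/2 and AGO1/2/3 KO lines.

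**Figure D2:**
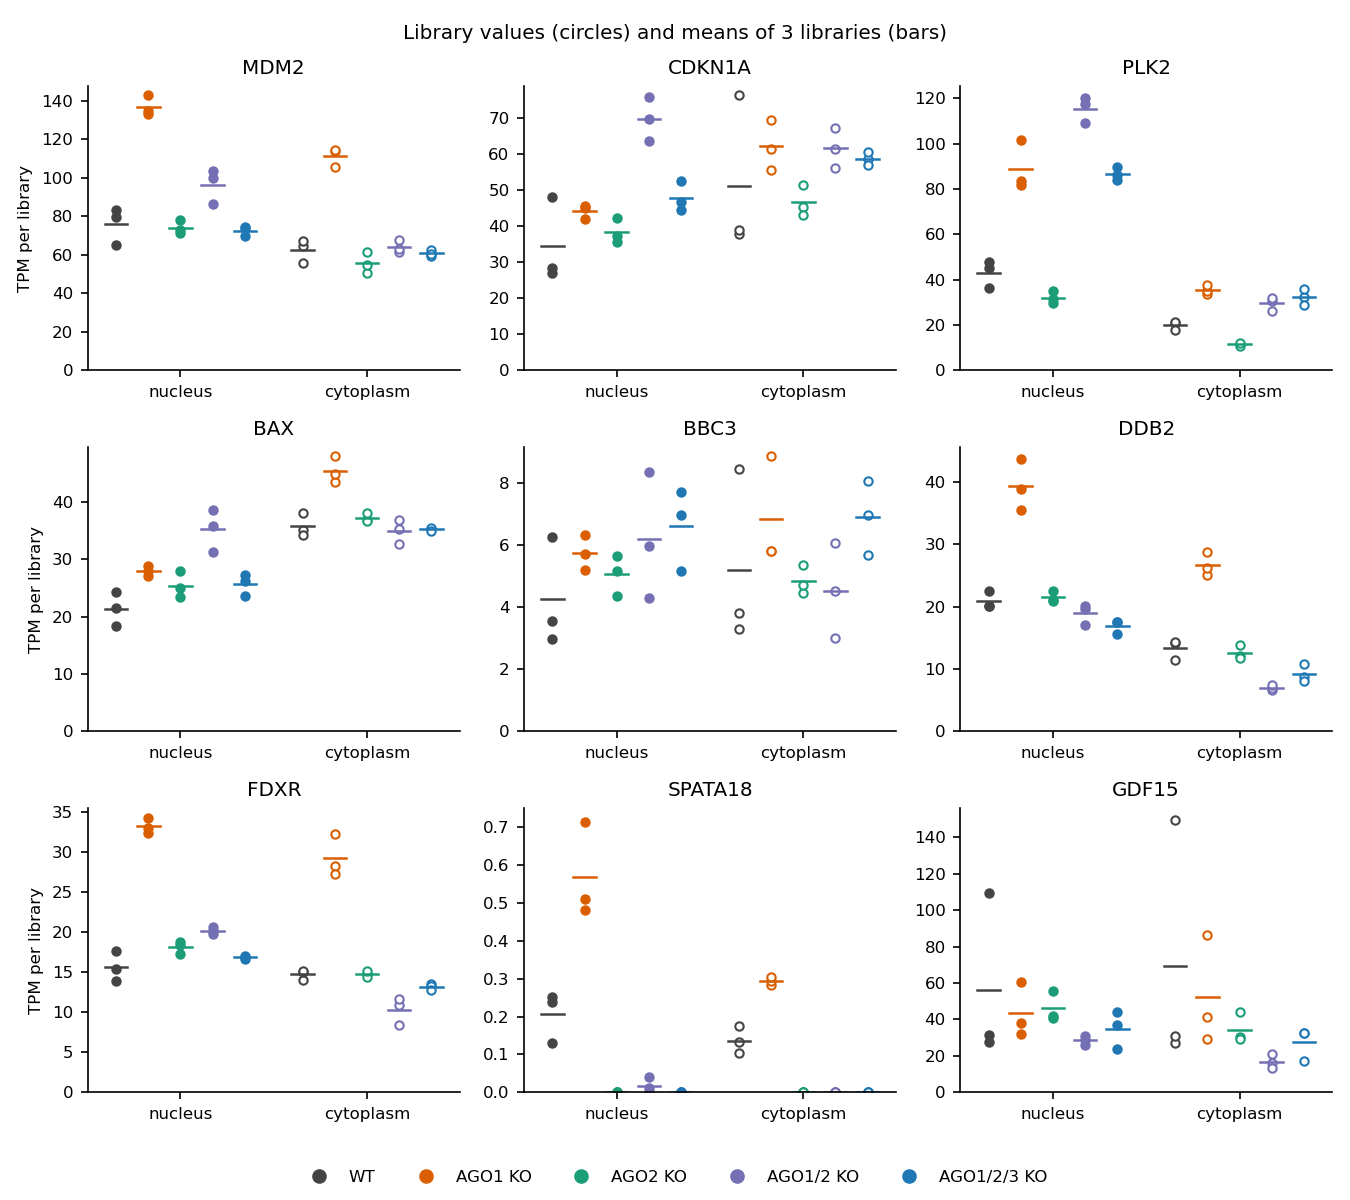
Levels in TPM of 9 p53 target genes in each of the 30 libraries (circles, filled for nucleus and open for cytoplasm, bars at the means of 3), with each vertical axis starting at 0. MDM2, DDB2 and FDXR are highest in the AGO1 KO libraries, and a single WT library, passage 29, stands high for CDKN1A, BBC3 and GDF15.

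The contrast between the AGO1 and AGO2 KO lines was tested directly, with no WT library in the difference. In the nucleus 19 target genes were higher in the AGO1 than in the AGO2 KO line and none was lower, beside 11.6% of all genes higher and 26.4% called in either direction, and the median log2 difference was 0.27 against 0.01 over all genes. In the cytoplasm 15 were higher and 1, MDM4, was lower, beside 11.6% higher and 26.1% called, and the median was 0.35 against 0.00. With limma on log2(TPM + 1), 13 were higher and none lower in the nucleus and 18 higher and 1 lower in the cytoplasm. On that scale 14.2% of all genes were called in the nucleus and 19.8% in the cytoplasm, of which 45.8% and 63% were higher. None of the edgeR calls of target genes changed direction under another scaling.

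The largest nuclear differences between the AGO1 and AGO2 KO lines, besides SPATA18, were those of PLK2 at 1.45 ± 0.09 (SE), FDXR at 0.89 ± 0.06, DDB2 at 0.87 ± 0.06, RRM2B at 0.84 ± 0.07 and MDM2 at 0.83 ± 0.07. In the cytoplasm these genes differed by 1.49, 0.89, 0.85, 1.01 and 0.74 in the same order. MDM4 was lower in the AGO1 KO cytoplasm by 0.46. CDKN1A and BBC3 did not pass this test in either fraction, with nuclear differences of 0.19 ± 0.20 and 0.21 ± 0.29.

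**Figure D3:**
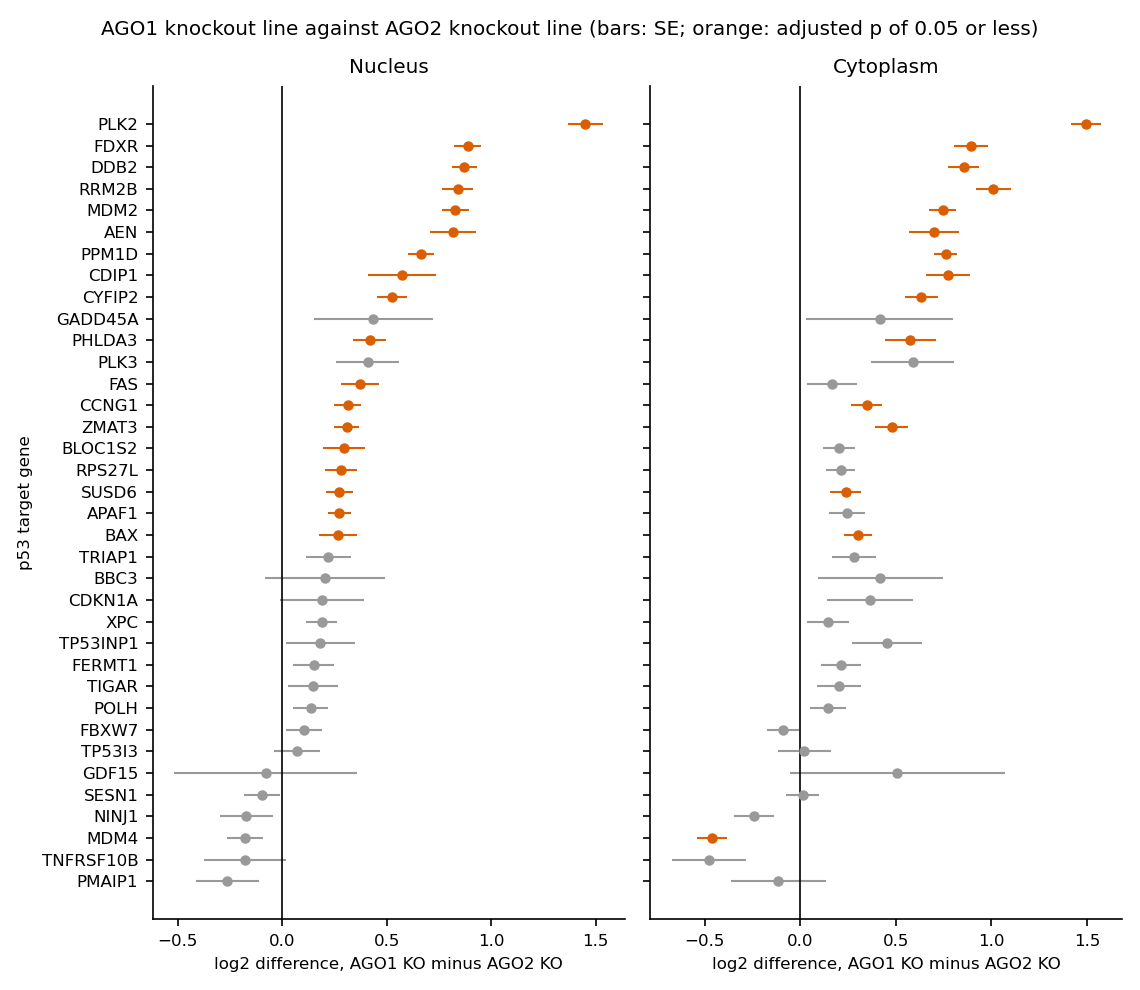
Log2 difference of each p53 target gene between the AGO1 and AGO2 knockout lines (points, bars show SE), in nucleus and cytoplasm, with orange for an edgeR adjusted p of 0.05 or less. PLK2 lies farthest right in both panels, at 1.45 and 1.49, and SPATA18, with no read in the AGO2 KO line, is left out.

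The AGO1/2 KO line was also set directly against the AGO1 KO line. In the nucleus 9 target genes were higher and 17 lower in the AGO1/2 KO line (30.9% of all genes lower, 61.2% called), and in the cytoplasm 6 were higher and 18 lower (26.5% lower, 54.3% called). DDB2 was lower by 1.34 and 1.55 on the log2 scale in the nucleus and cytoplasm, PPM1D by 0.54 and 0.94, FDXR by 0.94 and 1.23 and RRM2B by 0.74 and 1.21. PLK2 was 0.39 higher in the AGO1/2 KO nucleus and NINJ1 was 0.67 and 0.72 higher. The median over the target genes was -0.21 in the nucleus and -0.31 in the cytoplasm.

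The AGO1/2/3 and AGO1/2 KO lines, which differ by AGO3, were close. In the nucleus 5 target genes were lower in the AGO1/2/3 KO line and none higher (1.74% of all genes lower, 3.48% called). They were MDM2, RPS27L, PHLDA3, TIGAR and BLOC1S2, at -0.28, -0.31, -0.31, -0.50 and -0.39. In the cytoplasm 4 were lower, MDM2, RPS27L, BAX and BLOC1S2, and none higher (2.48% lower, 4.95% called), with BAX at -0.28 turning to 0.01 on the log2(TPM + 1) scale. Leaving out 1 library at a time gave between 0 and 12 calls of target genes in the nucleus and between 0 and 7 in the cytoplasm, the highest in both without AGO1/2 KO passage 11. The share called over all genes then ran from 0.16% to 16.3% in the nucleus and from 0.0278% to 12.9% in the cytoplasm. Without AGO1/2 KO passage 9 or 10 or AGO1/2/3 KO passage 11 or 12 edgeR left no target gene in either, with 12 to 14 nuclear and 5 to 13 cytoplasmic target genes at an unadjusted p under 0.05.

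WT nuclear and cytoplasmic RNA were compared to find where the target mRNAs lay. Relative to the bulk of genes 18 were lower and 6 higher in the nucleus than in the cytoplasm (37.3% of all genes lower, 76.8% called), and the median log2 difference was -0.42 against 0.04 over all genes. NINJ1, BLOC1S2, TRIAP1 and CCNG1 leaned most to the cytoplasm, at -1.86, -1.79, -1.54 and -1.32. FBXW7, XPC, MDM4, POLH, APAF1 and DDB2 leaned to the nucleus, at 0.79, 0.39, 0.39, 0.30, 0.24 and 0.22. With limma on log2(TPM + 1), where the median of all genes was 0.29, 17 target genes were higher and 10 lower in the nucleus. On that scale 76.1% of all genes were called, of which 75.2% were higher in the nucleus. MDM2, PPM1D, PMAIP1, CYFIP2 and FDXR turned from lower to higher.

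The effect of the AGO1/2/3 KO differed between fractions for 4 of the 39 target genes, a smaller share than over all genes (11.1% lower and 22.7% called). MDM4, FBXW7 and ZMAT3 were relatively lower in the nucleus, by 0.39 ± 0.12, 0.64 ± 0.13 and 0.56 ± 0.11 (SE) on the log2 scale (edgeR interaction, adjusted p = 0.0147, 0.000693 and 0.000422). FBXW7 levels fell from 33.7, 30.4 and 22.8 TPM in WT nuclei to 15.9, 13.7 and 13.6 TPM in AGO1/2/3 KO nuclei, while the cytoplasm had 12.1, 11.8 and 9.99 TPM and 10.4, 9.94 and 9.95 TPM. MDM4 was at -0.22 against WT in AGO1/2/3 KO nuclei, a call lost without AGO1/2/3 KO passage 12 or 14 or WT passage 28 or 29 (-0.19 to -0.11). PPM1D was relatively higher in the nucleus, by 0.24 ± 0.08 (adjusted p = 0.0428). Without the nuclear WT library of passage 29 the count was 7 and not 4, beside 23% of all genes called. With passage as a replicate block it was 11 (6 higher and 5 lower), beside 33.6% of all genes called. Yet the passages of the AGO1/2/3 KO line were not found to be paired across fractions.

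**Figure D4:**
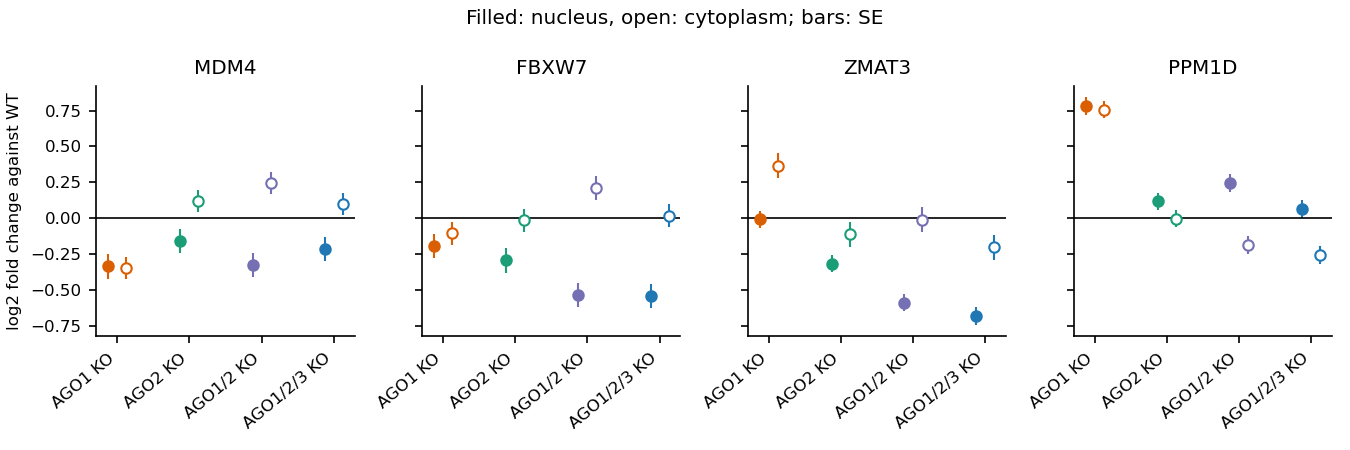
Log2 fold changes against WT (points, bars show SE) of the 4 genes whose AGO1/2/3 KO effect differed between nucleus (filled) and cytoplasm (open), in each of the 4 KO lines. In the AGO1/2/3 KO line MDM4, FBXW7 and ZMAT3 lie lower in the nucleus than in the cytoplasm, by 0.39, 0.64 and 0.56.

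Part of the nuclear TPM of several target genes lay on transcripts annotated with a retained intron. That share was lower than WT at the median in all 4 KO lines, for the target genes as for all genes with such a transcript. It could be measured for 20 target genes with such a transcript and a mean of at least 1 TPM. In AGO1/2 KO nuclei the share of 17 of them lay below all WT libraries and none above, beside 65.8% of all such genes lower. In AGO1/2/3 KO nuclei it was 13 and none, beside 57.2%, in the AGO2 KO line 7 and none, beside 36.7%, and in the AGO1 KO line 2 lower and 2 higher, beside 22.9% and 2.95%. The share of genes above WT was 1.23%, 1.18% and 1.28% in the AGO2, AGO1/2, then AGO1/2/3 KO nuclei. BAX went from 42.5% ± 2.77 (SD, n = 3) of its nuclear TPM in WT to 20.9% in AGO1/2 KO and 24.4% in AGO1/2/3 KO nuclei. DDB2, whose nuclear direction depended on which transcripts were summed, went from 56.0% ± 3.15 to 40.2% and 38.9%. The median difference over the 20 genes was -8.43 percentage points in the AGO1/2 KO line, against -7.56 over all such genes. It was -1.30 against -1.70 in the AGO1 KO line, -3.53 against -3.24 in the AGO2 KO line and -5.36 against -6.09 in the AGO1/2/3 KO line.

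**Figure D5:**
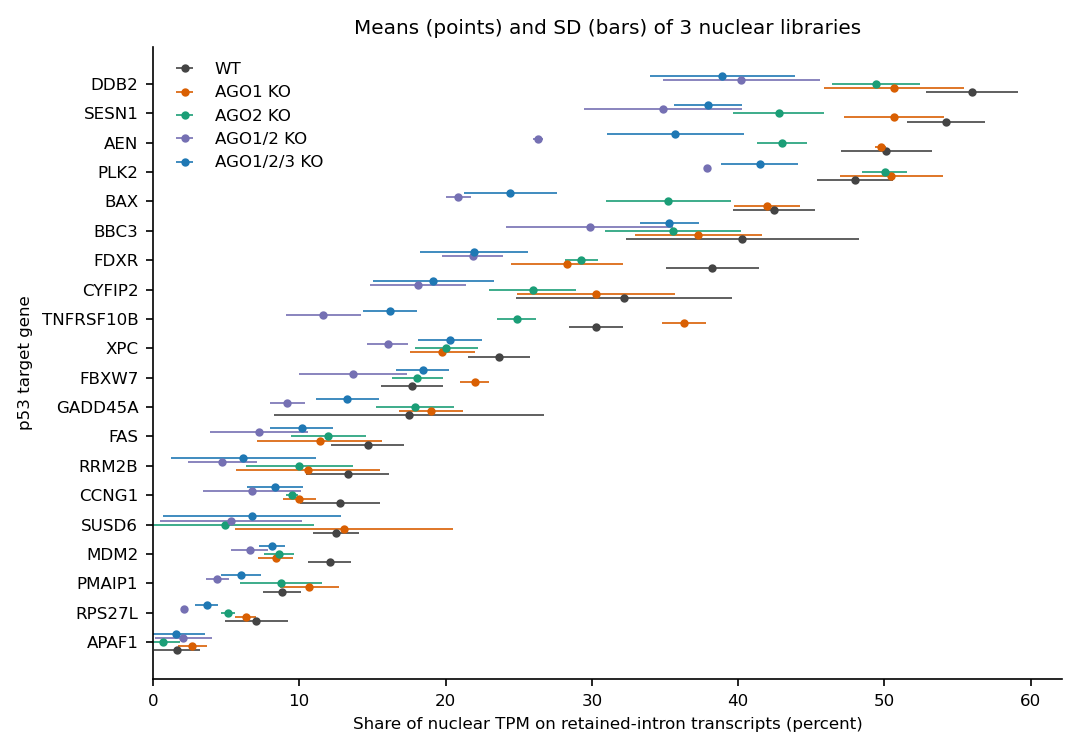
Share of the nuclear TPM of 20 p53 target genes on transcripts annotated with a retained intron, as means (points) and SD (bars) of 3 libraries per genotype, with genes ordered by their WT share. The AGO1/2 and AGO1/2/3 KO points lie to the left of WT for BAX and DDB2.

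The WT library of passage 29 stood apart for part of the list in both fractions. In nuclear TPM 5 of 36 target genes were over 1.5 times the mean of the other WT libraries, beside 5.12% of all genes with at least 1 TPM, and in cytoplasmic TPM 7 of 36 were, also beside 5.12%. GDF15 was at 3.69 and 5.14 times, GADD45A at 2.22 and 3.33, BBC3 at 1.92 and 2.37, CDKN1A at 1.74 and 1.99 and TNFRSF10B at 1.79 and 1.75 times in nucleus and cytoplasm. MDM2 was at 0.795 and 0.841 times, so the list did not move as a whole. Without this library 27 target genes rose and 2 fell in the AGO1 KO nucleus and 21 rose and 1 fell in its cytoplasm. The counts became 19 and 5, 21 and 6, and 14 and 5 in the nuclei, and 7 and 4, 14 and 8, and 8 and 8 in the cytoplasm, of the AGO2, AGO1/2 and AGO1/2/3 KO lines. Of all genes, 28%, 40.3%, 66.9% and 59.9% were then called in the nuclei and 10.2%, 15.5%, 50.5% and 44.1% in the cytoplasm of the 4 KO lines.

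A further 25 known p53 targets were counted in the same way for the AGO1 KO line. Of 24 tested in the nucleus 7 rose and 3 fell, with a median log2 fold change of 0.12, and of 23 tested in the cytoplasm 5 rose and 2 fell, with a median of 0.04. In AGO1/2/3 KO nuclei 10 rose and 3 fell. These calls are 41.7%, 30.4% and 54.2% of those tested, beside 29.9%, 12.4% and 58.6% of all genes. Among those that rose there were SFN (14-3-3 sigma, a G2 checkpoint protein) at 1.35, LIF at 0.99, PERP (a desmosome protein) at 0.84 and TNFRSF10C at 0.72. MIR34AHG, the host transcript of miR-34a, rose by 0.81 in the AGO1 KO nucleus and fell by 0.67 and 0.62 in those of the AGO1/2 and AGO1/2/3 KO lines. Its mature product is shown with the seed in capitals, as a p53-induced microRNA that acts through AGO.
hsa-miR-34a-5p: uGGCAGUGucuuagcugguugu

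Among regulators of p53, genes that passed the test in the AGO1/2/3 KO nucleus included DYRK2, a kinase that phosphorylates p53, at -1.01, the acetyltransferase KAT5 at 0.76, the deacetylase HDAC1 at 0.75 and the damage kinase ATR at -0.65. Of 20 cell cycle genes that p21 lowers through the DREAM and RB complexes, 7, 9, 19 and 16 rose and none fell in the nuclei of the 4 KO lines, or 35%, 45%, 95% and 80%. Of all genes 14.3%, 20.2%, 32.9% and 29.1% rose there, and 29.9%, 40.2%, 67.6% and 58.6% were called in either direction. AURKA, PLK1, CCNB2, CDC25C and CDC20 rose by 0.83, 0.81, 0.78, 0.76 and 0.73 in AGO1/2/3 KO nuclei. In the cytoplasm edgeR called none in the AGO1 and AGO2 KO lines (3 and 5 at an unadjusted p under 0.05), 5 rose and 5 fell in the AGO1/2 KO line, and 1 rose and 2 fell in the AGO1/2/3 KO line. Of all genes 12.4%, 16.1%, 49.3% and 38.7% were called in the cytoplasm of the 4 KO lines. The nuclear values move beside the fraction markers given above, whose part was not tested.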

How the data were processed

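RNA-seq libraries were made by the submitters with a strand-specific total RNA kit, aligned with STAR to hg38 and quantified with Salmon (versions 2.5.3a and 0.11.0 in the submitters' processing notes). The deposited files hold, per transcript, estimated counts (NumReads) and TPM, both made by the authors. Transcripts were matched by Ensembl identifier to GENCODE 44 (97.8% of 200401 matched) and summed per gene, and the estimated counts were rounded. Genes passing filterByExpr (minimum count 10) were tested with edgeR 4.0.16 (TMM, quasi-likelihood, Benjamini-Hochberg over all genes tested), fitting each fraction's 15 libraries jointly and all 30 for fraction contrasts. With 3 libraries against 3, an exact permutation test of a single gene cannot go below p = 0.1 and was not used.

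DESeq2 1.42.0, limma 3.58.1 on log2(TPM + 1), RLE size factors, length-scaled counts, other filters, protein-coding transcripts only and leaving out each library were tried as alternatives. The fitting scripts were tested on simulated data. The deposited transcript lengths were used only for the length-scaled counts. The members and gene lists were chosen with earlier results of these data known. Genes given library by library were MDM2, CDKN1A, BAX, BBC3, GDF15 and each member called with a log2 fold change of at least 1 in size in any of the 8 KO comparisons with WT, and from each other list up to 5 genes with the largest called change in AGO1/2/3 KO nuclei; further members are given as examples, and 2 genes that the rule names are not reported here. The comparisons between the AGO1 and AGO2 and between the AGO1/2 and AGO1 KO lines, and the miR-34a host gene, were chosen after seeing the data. Passage numbers pair the fractions within WT (correlations of deviations 0.566, 0.577 and 0.765) but not within the AGO1/2/3 KO line (-0.011, 0.259 and 0.042). The 8 eCLIP samples were not analysed here. Promoter and microRNA sequences are from RefSeq.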

Additional observations from a re-analysis of the deposited data

Results flagged for a closer look

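The effect of the AGO1/2/3 KO differed between nucleus and cytoplasm for 4 p53 target genes in the edgeR interaction test. The log2 difference, nucleus minus cytoplasm, was -0.39 for MDM4, -0.64 for FBXW7, -0.56 for ZMAT3 and 0.24 for PPM1D. These 4 of 39 target genes are a smaller share than the 22.7% called over all genes tested. With passage as a replicate block 11 were called, beside 33.6% of all genes tested. In addition, the nuclear fraction markers MALAT1 and GAPDH moved in the same libraries by -0.95 and 0.91. Their part in these values was not tested.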

How the results depend on the processing

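Of the counts of called target genes under an alternative, 207 stayed within 1.5 times and 27 did not. For the AGO1/2/3 against the AGO1/2 KO nucleus, 12 were called by DESeq2 (10.4% of all genes), 8 without a filter (3.64%), 1 with length-scaled counts (1.28%) and 12 with limma on log2(TPM + 1) (12.1%). On protein-coding transcripts 2 were called (2.12%), with only the groups compared 0 (edgeR, 0.638%), and 0 to 12 when 1 library was left out (0.16% to 16.3%). For the cytoplasm, 2 were called without a filter (2.94% of all genes), 2 with length-scaled counts (3.13%), 0 with limma (5.43%) and 0 with only the groups compared (0.00606%). Leaving out 1 library gave 0 to 7 (0.0278% to 12.9%). Where edgeR or limma called 0, between 5 and 20 target genes had an unadjusted p under 0.05. For the fraction difference 7 were called without a filter (13.4% of all genes), and 3 to 7 when 1 library was left out (17.8% to 24.3%). The cytoplasmic AGO1 KO count was 13 to 22 when 1 library was left out (6.78% to 12.9% of all genes). The cytoplasmic AGO1 against AGO2 KO count was 26 with only the groups compared (35.7% of all genes). The cause was not tested.

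With passages as a replicate block, the WT comparison of fractions called 30 target genes and not 24, beside 79.3% of all genes and not 76.8%. The interaction called 11 (6 higher and 5 lower) and not 4, where the passages were not paired, beside 33.6% of all genes and not 22.7%. No paired analysis was possible for KO against WT because their passages share no number.

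Some directions reversed. On log2(TPM + 1), MDM2 was at -0.03 and -0.0595 (AGO2 and AGO1/2/3 KO nuclei) and -0.166 and -0.0353 (cytoplasm), CDKN1A at -0.0527 and DDB2 at -0.0733 (AGO2 KO cytoplasm), BAX at -0.0329 and -0.02 (AGO1/2 and AGO1/2/3 KO cytoplasm), BBC3 at -0.108 (AGO1/2 KO cytoplasm) and FDXR at -0.151 (AGO1/2/3 KO cytoplasm). DDB2 on protein-coding transcripts was at 0.31 and 0.38 (AGO1/2 and AGO1/2/3 KO nuclei). When 1 library was left out, GDF15 ran from -0.531 to 0.871 (AGO1 KO), -0.40 to 0.963 (AGO2 KO), -1.32 to 0.046 (AGO1/2 KO) and -0.84 to 0.524 (AGO1/2/3 KO) in nuclei, and in the cytoplasm from -0.861 to 1.04 (AGO1 KO), -1.22 to 0.532 (AGO2 KO) and -1.53 to 0.222 (AGO1/2/3 KO), each highest without WT passage 29. In the AGO2 KO cytoplasm CDKN1A ran from -0.156 to 0.532 and BBC3 from -0.161 to 0.743, and in the AGO1/2 KO cytoplasm BBC3 ran from -0.10 to 0.805, each lowest without WT passage 27.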
